A study of Mus musculus with 12 samples.

Results

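The chemokine ligands and receptors of the mouse left ventricle were followed through 12 RNA-seq libraries. Members were the genes of the deposited count table whose symbol is Ccl, Ccr, Cxcl or Cxcr followed by a number and at most 1 letter, which gave 59 of 53465 genes, 43 ligands and 16 receptors under 53 distinct symbols. Of these, 35 had enough counts to be tested (26 ligands and 9 receptors, among 16101 genes tested). The 28 described singly had a mean over 1 FPKM (fragments per kilobase of gene, scaled to library size) in some group or an unadjusted p under 0.05 in some comparison. Where another member is named, it was chosen after its values were seen.

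The mice were male C57BL/6J littermates of 2 genotypes, 8 weeks old at the start. A17fl/fl mice carried floxed alleles of Adam17, the gene of a membrane protease that sheds cytokines and receptors from cell surfaces. In A17α-MHCKO mice the α-MHC promoter drove Cre in cardiomyocytes, where it removed exon 2 of Adam17, so the other cells of the ventricle kept the gene and transcripts without exon 2 could still be counted. Each genotype was given either the anthracycline doxorubicin (DOX) or normal saline (NS). Doxorubicin was injected intraperitoneally at 5 mg/kg on days 0, 7, 14 and 21, for a total of 20 mg/kg, and hearts were taken 4 weeks after the last injection. There were 3 mice in each of the 4 groups and 1 library per mouse.

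Chemokines are small secreted proteins that direct the movement of leukocytes by binding G protein-coupled receptors. Ligands of the CXC class that bind Cxcr2 draw neutrophils, the ligands of Ccr2 draw monocytes, Ccl5 and the Cxcr3 ligands draw T and NK cells, and the Ccr7 ligands guide lymphocytes and dendritic cells along lymphatic vessels. A second set, among them Cxcl12 and Cxcl14, is made by stromal cells without an inflammatory stimulus. In the heart such genes are known from resident macrophages, fibroblasts and endothelium and from leukocytes that enter after injury.

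The sequences just before the start sites of 4 ligand genes are shown first, because Cxcl1, Cxcl2 and Cxcl3 were all high in a single heart and Cxcl14 had the lowest p of all members between genotypes. Each run is the 250 bases upstream of the start in RefSeq's GRCm38.p6 table, 5′ to 3′ on the gene's strand, a build other than the GRCm39 named for the counts. Capitals mark matches, on either strand, to GGANNTTCC (kappa B-like), GAAANNGAA (like an interferon-stimulated response element), TTGCNNAA (C/EBP-like) or TATAAA (the core promoter box).
Cxcl1, chr5:90890995-90891244, plus strand: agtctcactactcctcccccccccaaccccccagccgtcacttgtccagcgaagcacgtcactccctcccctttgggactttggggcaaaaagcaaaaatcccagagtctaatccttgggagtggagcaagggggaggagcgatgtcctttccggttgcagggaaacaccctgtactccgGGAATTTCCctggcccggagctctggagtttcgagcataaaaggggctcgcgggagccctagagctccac
Cxcl2, chr5:90903649-90903898, plus strand: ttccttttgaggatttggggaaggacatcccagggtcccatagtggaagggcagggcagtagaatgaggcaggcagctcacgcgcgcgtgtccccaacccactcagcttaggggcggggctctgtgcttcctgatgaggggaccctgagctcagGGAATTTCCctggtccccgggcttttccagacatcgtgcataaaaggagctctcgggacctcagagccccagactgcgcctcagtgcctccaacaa
Cxcl3, chr5:90785851-90786100, plus strand: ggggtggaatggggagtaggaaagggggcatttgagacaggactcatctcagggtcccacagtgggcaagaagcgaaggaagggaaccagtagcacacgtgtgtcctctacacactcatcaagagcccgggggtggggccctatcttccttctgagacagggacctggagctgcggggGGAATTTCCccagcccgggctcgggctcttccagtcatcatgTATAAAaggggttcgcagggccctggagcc
Cxcl14, chr13:56296552-56296801, minus strand: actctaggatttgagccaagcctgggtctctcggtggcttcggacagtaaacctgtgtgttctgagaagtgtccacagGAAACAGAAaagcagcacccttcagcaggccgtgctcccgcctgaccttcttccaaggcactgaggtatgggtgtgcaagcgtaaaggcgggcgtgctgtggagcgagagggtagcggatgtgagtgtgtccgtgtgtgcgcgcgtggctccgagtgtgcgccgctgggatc

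The same 11 bases, gGGAATTTCCc, stood in all 3 windows of Cxcl1, Cxcl2 and Cxcl3, with the kappa B-like match beginning 70, 96 and 72 bases before the start. In windows that also held the 50 bases after the start, this pattern was found for 7 of 37 member symbols (18.9%) and in 4.26% of all 32851 windows. The other 4 symbols with it were Ccl1, Ccl12, Ccr3 and Cxcl10. The window of Cxcl14 held an interferon element-like match beginning 172 bases before the start, as 8 of the 37 did for this pattern (21.6%, against 8.56% of all windows), Cxcl9, Cxcl10 and Ccl3 among them. The core promoter box was in 10 of the 37 (27.0%, against 13.6%) and C/EBP-like matches in 4 (10.8%, against 10.8%). GGANNTTCC and its reverse complement can overlap on the same bases, as they did in the windows of Cxcl1, Cxcl2 and Cxcl3. A member symbol was counted if any of its windows matched, whereas the share of all windows was taken window by window. The percentages set side by side therefore differ in unit.

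Library totals were between 15950717 and 21725076 fragments. Adam17 was at 43.6 to 70.9 CPM (counts scaled to library size after TMM normalization) in the 6 A17fl/fl hearts and at 27.9 to 36.8 CPM in the 6 A17α-MHCKO hearts, without overlap. The cardiomyocyte markers Myh6, Tnnt2, Actc1, Ryr2 and Tnni3 summed to 13460 to 36220 CPM. The lowest sum came from A17fl/fl + NS replicate 1, a library that stood apart: its score on the first principal component was -120, against -12.9 to 28.4 for the others, and its mean correlation with them was 0.900, against 0.948 to 0.966. Neutrophil markers summed to 2245 CPM there and to 5.21 to 70.2 CPM in the other 11 libraries, with all 8 markers highest in it. Macrophage markers (1260 CPM, against 509 to 701) and monocyte markers (1255, against 61.1 to 180) were also highest there, while T and NK cell markers were lowest (3.46, against 4.61 to 15.8). The part of these cells in the results was not tested, and results that rest on this heart are given with and without it. In whole tissue, fewer cells of a type and less RNA per cell cannot be told apart.

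In the order of the median FPKM over the 12 hearts, the monocyte and macrophage ligands Ccl6 (22.3 FPKM, 16.96 to 306) and Ccl8 (21.1, 5.20 to 106) led the family. They were followed by a Ccl21a gene (20.7, 5.31 to 32.4), by Cxcl12 (18.5, 13.9 to 30.4), the ligand of Cxcr4, by Cxcl14 (11.9, 4.09 to 72.2) and by Ccl9 (10.6, 6.80 to 78.3). The ranges of these neighbours overlapped, so their order is not firm. The most abundant receptor was Cxcr4 at 3.11 FPKM (1.78 to 7.56), and Ccr1, a receptor of Ccl3 and Ccl5 on myeloid cells, was at 1.62 (0.444 to 42.1). Medians were over 1 FPKM for 20 members. At the other end the median of Cxcl3 was 0, that of Cxcl2 was 0.0398 and that of Cxcr2 was 0.140 FPKM. Of the 31 members not described singly, 22 were not tested and had at most 52 counts in any library, and 3 of the 59 (Ccl26, a second Ccl19 and a second Ccl27a) had 0 counts in all 12.

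**Figure D1:**
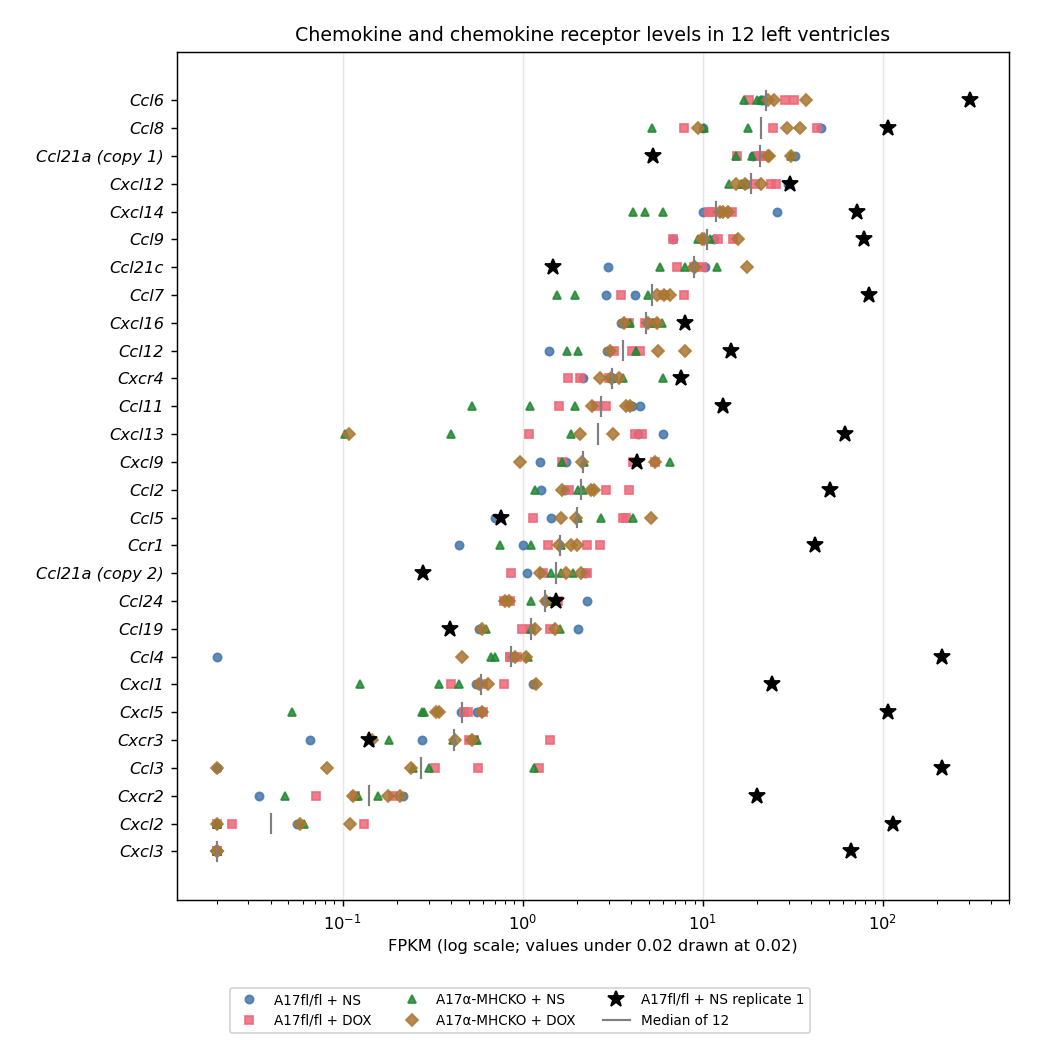
Levels of the 28 genes described singly in each of the 12 hearts, with FPKM on a log axis, a symbol for each group, a star for A17fl/fl + NS replicate 1 and a grey line at the median of the 12. The star lies to the right of every other point for Cxcl3, Cxcl2, Cxcr2, Ccl3, Cxcl5 and Ccl4, and to the left of every other point for the Ccl21a genes, Ccl21c and Ccl19.

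The neutrophil-attracting ligands were almost absent from 11 hearts and abundant in 1. In A17fl/fl + NS replicate 1 Cxcl3 reached 4901 counts, against 0 in each of the other 11 libraries, a level at least 1451-fold higher than a floor of 3 counts per library. Cxcl2 had 9610 counts in that heart and 0 to 11 in the others. Cxcl5 had 3979 against 2 to 22, and Cxcl1 had 1118 against 6 to 56. These genes, whose upstream sequences are printed above for all but Cxcl5, lie next to one another in RefSeq's gene order (GRCm38.p6), in a run of 7 genes: Cxcl5, Ppbp, Pf4, Cxcl3, Cxcl15, Cxcl1 and Cxcl2. The platelet chemokines of this run, Pf4 and Ppbp, were also highest there (127 CPM, against 14.4 to 31.45, and 17.6 CPM, against 1.13 to 12.2), whereas Cxcl15 had 0 counts in this heart and 2 in A17fl/fl + NS replicate 2, the only library with any. The platelet markers Itga2b, Gp9, Gp1bb and Gp6 summed to 16.04 CPM in this heart and to 3.08 to 28.25 CPM in the others, with 0 of 4 highest in it. Cxcr2, the receptor through which Cxcl1, Cxcl2, Cxcl3 and Cxcl5 act on neutrophils, had 1726 counts there and 3 to 20 elsewhere, and Cxcr1 had 52 against 0 to 3.

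The same heart held the highest level of the myeloid cell attractants Ccl3 (2668 counts, against 0 to 15), Ccl4 (2293, against 0 to 12), Ccl6 (738 CPM, against 45.1 to 97.8) and Ccl9 (239 CPM, against 22 to 52). Their neighbour in the gene order, Ccl5, was near the bottom of its range there (0.866 CPM, against 0.838 to 6.25). Among the monocyte attractants, Ccl2 was at 1594 counts against 38 to 121, Ccl7 at 63.4 CPM against 1.296 to 6.28, Ccl8 at 51.4 against 2.78 to 25.4, and Ccl12 at 12.2 against 1.26 to 7.23. Ccr1 was at 113 CPM there and at 1.26 to 7.57 in the other hearts. The B cell attractant Cxcl13 was at 67.4 CPM against 0.124 to 6.94. Not every member followed: the Ccr7 ligands Ccl21a, Ccl21c and Ccl19 had their lowest levels in this heart, for the main Ccl21a gene 2.02 CPM against 6.22 to 13.0.

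Of the 35 members tested, 20 had their highest level in this library, beside 26.1% of all genes tested. Its level was more than 10 times that of the next highest library for 8 of the 35, beside 0.515% of all genes, and more than 100 times for Ccl3, Ccl4 and Cxcl5, beside 0.0435%. Neutrophil, monocyte and macrophage markers moved with these genes, as given above. Fibroblast markers summed to 3409 CPM there against 973 to 1557, but only 2 of 4 were highest in this heart. Col1a1 was at 2262 CPM against at most 379, whereas Lum was at its lowest (69.2 CPM, against 75.4 to 167). The 10 cytokine-response genes that NF-kB induces summed to 1294 CPM against 87.4 to 165, all 10 highest in this heart, with the cytokine Il1b at 428 CPM against at most 2.15. The 8 immediate-early genes summed to 735 CPM against 167 to 293, with 6 of 8 highest there. The part of these responses in the chemokine levels was not tested.

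**Figure D2:**
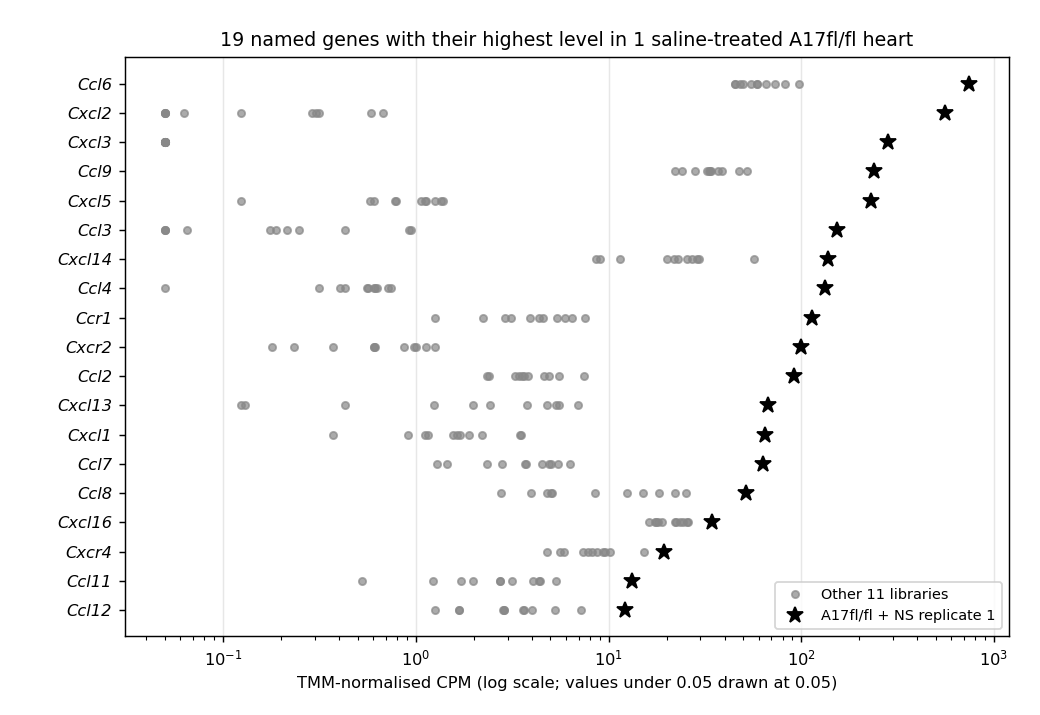
The 19 genes described singly whose highest level was in A17fl/fl + NS replicate 1 (star), with TMM-normalized CPM on a log axis and the other 11 libraries as grey points. Cxcl2, Cxcl3, Cxcl5, Ccl3, Ccl4 and Cxcr2 lie near or under 1 CPM in the other hearts and near or over 100 CPM in this heart.

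Whether doxorubicin changed the chemokines of hearts with intact Adam17 was asked by comparing A17fl/fl + DOX with A17fl/fl + NS. By the study's limits (log2 fold change beyond 1 either way, p under 0.05 before adjustment, and at least 1 group averaging over 1 FPKM), 1 of 35 members was higher after doxorubicin, beside 0.596% of all genes, and 12 were lower, beside 2.22%. At an adjusted p under 0.05 edgeR called 0 members (0% of all genes), with 15 at an unadjusted p under 0.05 (10.7% of all genes). DESeq2 had 7 members at an unadjusted p under 0.05 (11.4% of all genes) and also called 0 after adjustment (0.947%). It was run with its default filter for single outlying counts and gave no p to 156 genes. Any member among these counts as not called but was not tested, and how many there were was not counted. The 12 were Cxcl1, Cxcl5, Cxcr2, Ccl2, Ccl7, Ccl3, Ccl4, Ccl6, Ccr1, Cxcl13, Cxcl14 and Ccl11, and each was at its highest in A17fl/fl + NS replicate 1. Without that library 0 members were lower by these limits (0.646% of all genes), and 1, Ccr1, was higher (0.597%).

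Cxcl5, for example, was at 230, 1.26 and 1.13 CPM in the 3 A17fl/fl + NS hearts and at 1.07, 1.35 and 1.12 CPM in the 3 A17fl/fl + DOX hearts. The groups overlapped, with 1 saline heart far above the rest. The fitted log2 fold change was -6.03 ± 1.71 (SE, edgeR adjusted p = 0.349) with all libraries and -0.02 ± 0.51 without the first saline heart. For Ccl2 the sign turned, from -2.58 ± 1.06 to 0.87 ± 0.36 (edgeR adjusted p = 0.465). It had 1594, 40 and 57 counts after saline and 88, 121 and 55 counts after doxorubicin. Ccr1 went from -2.71 ± 1.19 to 1.44 ± 0.42 (edgeR adjusted p = 0.314), from saline hearts at 113, 1.26 and 3.13 CPM and doxorubicin hearts at 6.48, 7.57 and 3.92 CPM. Apart from the first saline heart, all 3 doxorubicin hearts were above the saline hearts for Ccr1. In all, 9 of 35 members were higher and 2 lower without overlap between the groups once this heart was left out (14.7% and 13.4% of all genes), against 3 and 2 with it (7.15% and 6.11%).

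The Ccr3 ligand Ccl11 (eotaxin, an attractant of eosinophils) was at 13.3, 4.37 and 5.33 CPM after saline and at 3.14, 1.72 and 2.74 CPM after doxorubicin. Every treated heart was below every saline heart. The log2 fold change was -1.59 ± 0.50 (edgeR adjusted p = 0.366) and -0.94 ± 0.43 without the first saline heart (edgeR adjusted p = 0.485). Over 13 alternatives the adjusted p ran from 0.0755 to 0.791, and the unadjusted p was under 0.05 in each.

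**Figure D3:**
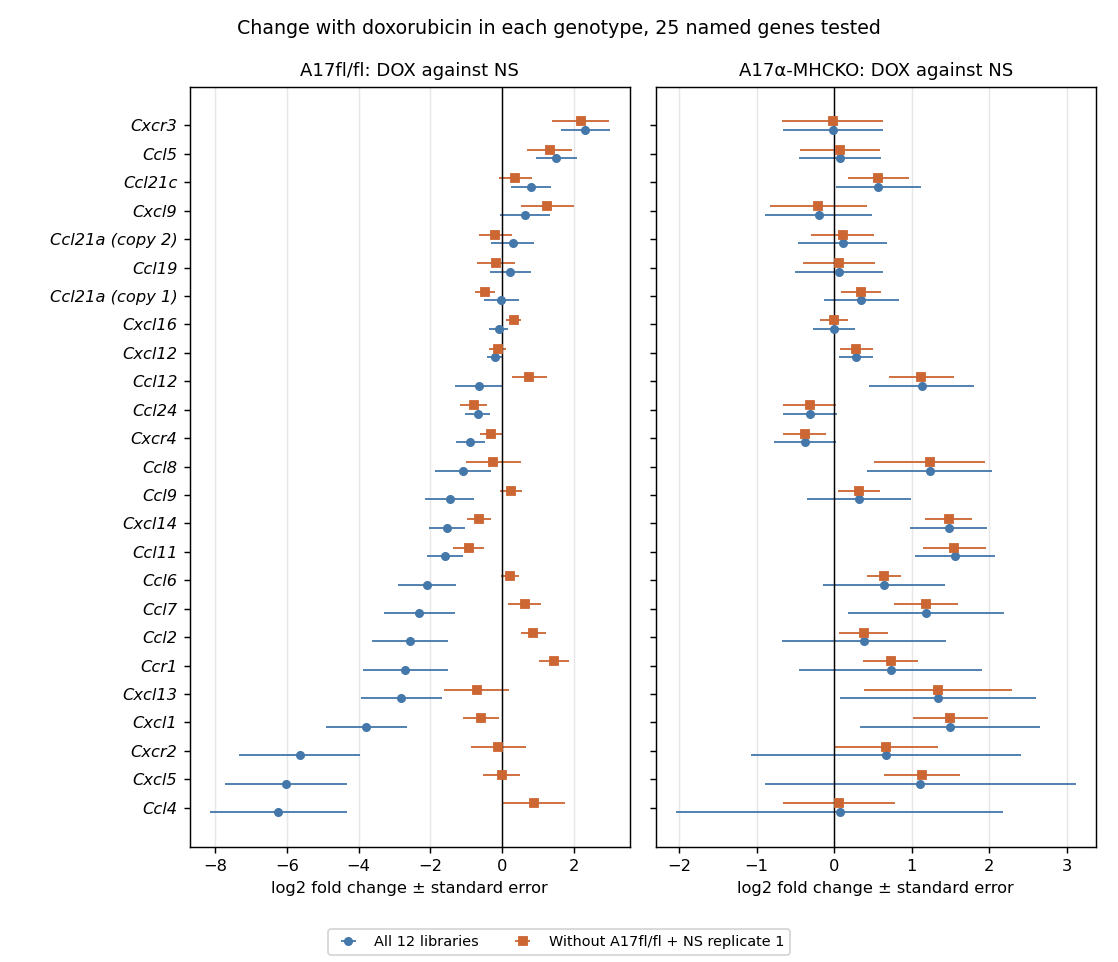
Log2 fold change with doxorubicin, with its standard error, for 25 of the genes described singly in A17fl/fl hearts (left) and A17α-MHCKO hearts (right), fitted on all 12 libraries (circles) and without A17fl/fl + NS replicate 1 (squares). In A17fl/fl hearts the circles of Ccl4, Cxcl5, Cxcr2 and Cxcl1 lie below -3 and their squares within 1 of 0, while in A17α-MHCKO hearts circles and squares coincide and the squares carry shorter error bars. Ccl3 is left out, since both other saline A17fl/fl hearts had 0 counts.

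Unlike Ccl3, Ccl4, Ccl6, Ccl9 and Ccr1, the lymphocyte genes Ccl5 and Cxcr3 were not high in A17fl/fl + NS replicate 1. Nor was the monocyte receptor Ccr2 (9.75 CPM, against 2.47 to 16.6 in the other hearts). Ccl5, a chemokine that T and NK cells make, was at 0.866, 0.838 and 1.88 CPM in A17fl/fl + NS and at 4.34, 4.49 and 1.37 CPM in A17fl/fl + DOX. A single treated heart lay within the saline range. It was the 1 member higher after doxorubicin by the study's limits, with a log2 fold change of 1.51 ± 0.57 (edgeR adjusted p = 0.416). The call was lost, with a log2 fold change between 1.26 and 1.32, without A17fl/fl + NS replicate 1 or 2 or without A17fl/fl + DOX replicate 1 or 2. With voom and library weights, an alternative fit, it was lost as well, since 0 members were called higher. The receptor Cxcr3, carried by activated T and NK cells, was at 0.231, 0.479 and 0.125 CPM after saline and at 2.45, 0.923 and 0.870 CPM after doxorubicin, without overlap. Its log2 fold change was 2.31 ± 0.68 (edgeR adjusted p = 0.358) and 2.19 ± 0.79 without the first saline heart, from at most 39 counts in a library. Its mean stayed under 1 FPKM in both groups, so it did not meet the study's limits.

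Of the Cxcr3 ligands that interferon induces, Cxcl9 was at 13.3, 5.68 and 4.45 CPM after saline and at 13.5, 17.7 and 5.35 CPM after doxorubicin, so the groups overlapped. Cxcl10 was at 8.14, 0.598 and 1.19 CPM after saline and at 4.78, 6.03 and 1.68 CPM after doxorubicin. Without the first saline heart its log2 fold change was 2.21 ± 0.86 (edgeR adjusted p = 0.426), and with it 0.33 ± 0.92. The monocyte receptor Ccr2 was at 9.75, 3.05 and 5.39 CPM after saline and at 13.7, 11.7 and 12.1 CPM after doxorubicin. The treated hearts were all above the saline hearts, with a log2 fold change of 1.04 ± 0.54 (edgeR adjusted p = 0.509) and of 1.56 ± 0.56 without the first saline heart (edgeR adjusted p = 0.381). Cxcr4, the receptor of Cxcl12, was at 19.4, 5.86 and 9.40 CPM and at 8.24, 5.60 and 4.79 CPM, with a log2 fold change of -0.90 ± 0.40 (edgeR adjusted p = 0.461) that became -0.30 ± 0.32 without that heart.

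The means of all 10 T and NK cell markers were higher in A17fl/fl + DOX than in A17fl/fl + NS, 9 of 10 with the first saline heart left out, and their summed levels were 10.3 to 13.3 CPM against 3.46 to 6.83 CPM. Ncr1 was at 0 in all 3 saline hearts, and Cd3e, Cd8a, Nkg7 and Gzma were at 0 in the first. In A17α-MHCKO hearts the sums were 6.86 to 14.6 CPM after saline and 5.92 to 15.8 CPM after doxorubicin. The 10 interferon-response markers summed to 282 to 459 CPM in A17fl/fl + DOX and to 172 to 351 CPM in A17fl/fl + NS hearts, with 6 of 10 means higher after doxorubicin and 10 of 10 without the first saline heart. The part of these cells and of this response in the levels of Ccl5, Cxcr3, Cxcl9 and Cxcl10 was not tested.

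**Figure D4:**
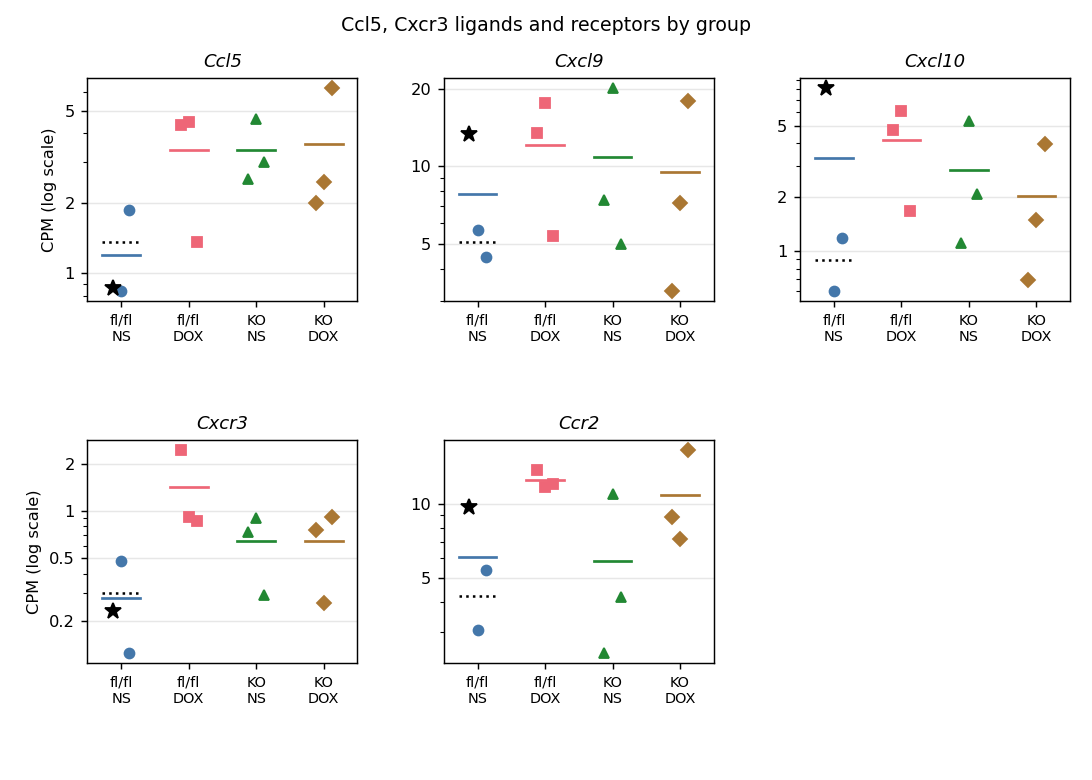
TMM-normalized CPM of Ccl5, Cxcl9, Cxcl10, Cxcr3 and Ccr2 in each heart on log axes, with lines at group means (KO stands for A17α-MHCKO), a star for A17fl/fl + NS replicate 1 and a dotted line at that group's mean without it. The 3 A17fl/fl + DOX hearts lie above the 3 A17fl/fl + NS hearts for Cxcr3 and Ccr2, and 2 of 3 do for Ccl5.

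Loss of Adam17 in cardiomyocytes was examined without the drug by comparing A17α-MHCKO + NS with A17fl/fl + NS. By the study's limits 14 of 35 members were lower in A17α-MHCKO hearts, beside 2.32% of all genes, and 1, Ccl5, was higher, beside 0.671%. At an adjusted p under 0.05 edgeR called 0 members (0.0186% of all genes), with 16 at an unadjusted p under 0.05 (10.1% of all genes), while DESeq2 called 4 (1.09% of all genes, 174 in number): Cxcl14, Ccl11, Cxcl1 and Cxcl12. The 14 were the 12 lower after doxorubicin in A17fl/fl hearts together with Ccl8 and Ccl9, and both comparisons share the A17fl/fl + NS libraries. Leaving out the first of these left 3 members lower, Cxcl14, Ccl11 and Cxcl13 (0.841% of all genes), and 0 higher (0.707%). Without overlap between the groups, 8 of 35 members were lower and 1 higher (5.34% and 5.52% of all genes), and 8 and 3 when that heart was left out (12.3% and 13%).

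Cxcl14, a stromal chemokine, was at 138, 20.2 and 56.9 CPM in A17fl/fl + NS hearts (71.8 ± 60.5, SD, n = 3) and at 8.64, 11.4 and 9.01 CPM in A17α-MHCKO + NS hearts (9.70 ± 1.52, n = 3). The lowest A17fl/fl heart was above the highest A17α-MHCKO heart. The log2 fold change was -2.89 ± 0.52 (edgeR adjusted p = 0.119) and -1.99 ± 0.33 without the first A17fl/fl heart (adjusted p = 0.0593), and all 14 alternatives kept a p under 0.05, with adjusted p up to 0.910. Ccl11 was at 13.3, 4.37 and 5.33 CPM in A17fl/fl and at 1.24, 1.99 and 0.523 CPM in A17α-MHCKO hearts. Again no heart of one genotype reached the other's range. Its log2 fold change was -2.59 ± 0.52 (edgeR adjusted p = 0.172), and -1.93 ± 0.44 without that heart (edgeR adjusted p = 0.161).

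Cxcl12, which retains leukocytes and progenitors through Cxcr4, was at 372, 225 and 422 CPM in A17fl/fl + NS and at 189, 200 and 196 CPM in A17α-MHCKO + NS hearts. All 3 A17α-MHCKO hearts were lower, and they lay close together. Its log2 fold change of -0.80 ± 0.22 (edgeR adjusted p = 0.316) was below the study's size limit and stayed at -0.74 ± 0.23 without the first A17fl/fl heart. Cxcl13 was at 67.4, 6.94 and 5.51 CPM in A17fl/fl and at 0.124, 0.432 and 1.98 CPM in A17α-MHCKO hearts, the latter from 2, 10 and 34 counts. The log2 fold change was -4.99 ± 1.3 (edgeR adjusted p = 0.305), and -2.89 ± 0.99 without that heart (edgeR adjusted p = 0.358). Cxcl1 was at 64.5, 1.56 and 3.51 CPM in A17fl/fl and at 0.370, 0.907 and 1.16 CPM in A17α-MHCKO hearts, with log2 fold changes of -4.81 ± 1.2 and, without that heart, -1.62 ± 0.53 (edgeR adjusted p = 0.332), its mean then under 1 FPKM in both groups. For Cxcl5 the value without it was -1.40 ± 0.53 (edgeR adjusted p = 0.399), from 21 and 18 counts against 2, 14 and 10.

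For the myeloid members the difference between genotypes was not called without that heart. The log2 fold change of Ccl7 went from -3.40 ± 1.05 to -0.46 ± 0.46, that of Ccl6 from -2.58 ± 0.82 to -0.26 ± 0.25, and that of Cxcr2 from -5.88 ± 1.70 to -0.33 ± 0.75. Ccl8 went from -2.33 ± 0.82 to -1.49 ± 0.78 (edgeR adjusted p = 0.55). Ccl5 was higher in A17α-MHCKO + NS hearts, at 2.53, 4.62 and 3.02 CPM, than in any A17fl/fl + NS heart, with a log2 fold change of 1.51 ± 0.57 (edgeR adjusted p = 0.404) and of 1.32 ± 0.63 without the first A17fl/fl heart (edgeR adjusted p = 0.505), when the unadjusted p was above 0.05. It was also above 0.05 without A17fl/fl + NS replicate 2 or A17α-MHCKO + NS replicate 2 (1.32 and 1.23). With voom and library weights 0 members were called higher in this comparison. The means of all 10 T and NK cell markers were higher in A17α-MHCKO + NS hearts too, 9 of 10 with the first A17fl/fl heart left out. Their sums were 6.86 to 14.6 CPM, against 3.46 to 6.83 CPM in A17fl/fl + NS hearts.

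Summed markers of other tissue parts are given beside Cxcl14, Ccl11 and Cxcl12 for these groups. The atrial markers Myl7, Sln, Myl4 and Nppa, the last of which stressed ventricle also makes, summed to 1021, 6972 and 332 CPM in A17fl/fl + NS replicates 1, 2 and 3 and to 3864 to 8048 CPM in A17α-MHCKO + NS hearts, with 4 of 4 means higher in A17α-MHCKO. Myl7 and Sln were at or near 0 in A17fl/fl + NS replicates 1 and 3. Replicate 2, a single heart, had the lowest Cxcl14, Ccl11 and Cxcl12 of its group, and the 3 A17α-MHCKO + NS hearts were lower for each gene. Adipocyte markers summed to 0.750, 32.5 and 0.313 CPM against 8.64 to 43.8 CPM, with 5 of 5 means higher in A17α-MHCKO, and mesothelial markers to 16.2, 122 and 5.76 CPM against 14.4 to 77.0 CPM, with 3 of 5 higher. The 4 fibroblast markers summed to 3409, 1254 and 1013 CPM against 1240 to 1557 CPM, with 2 of 4 means higher in A17α-MHCKO and 4 of 4 when the first A17fl/fl heart was left out. The part of atrium, fat, mesothelium and fibroblasts in these differences was not tested.

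**Figure D5:**
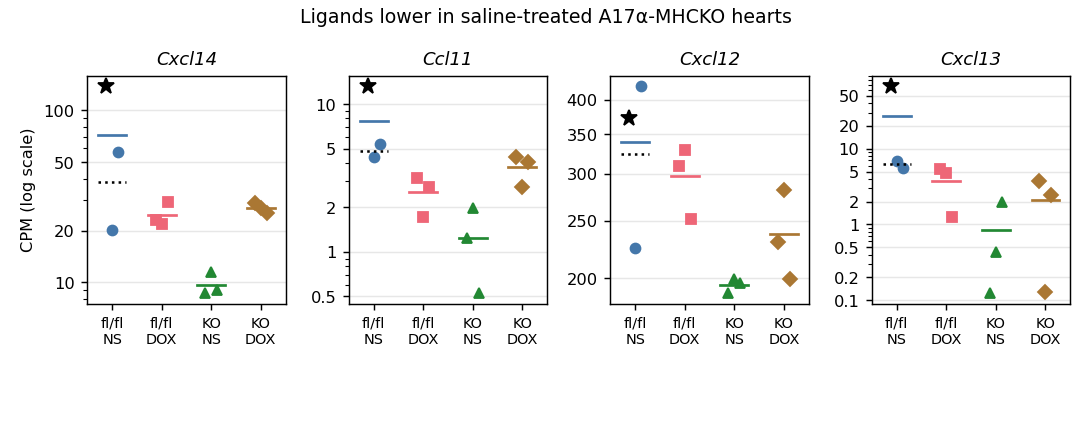
TMM-normalized CPM of Cxcl14, Ccl11, Cxcl12 and Cxcl13 in each heart on log axes, with lines at group means (KO stands for A17α-MHCKO), a star for A17fl/fl + NS replicate 1 and a dotted line at that group's mean without it. For all 4 genes the 3 A17α-MHCKO + NS hearts lie below the 3 A17fl/fl + NS hearts, and for Cxcl14 and Ccl11 the 3 A17α-MHCKO + DOX hearts lie above the 3 A17α-MHCKO + NS hearts.

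In A17α-MHCKO hearts doxorubicin was followed by higher levels of Cxcl14 and Ccl11. By the study's limits 2 of 35 members, Cxcl14 and Ccl11, were higher (0.373% of all genes) and 0 lower (0.286%), and these were also the only 2 at an unadjusted p under 0.05 (6.42% of all genes). At an adjusted p under 0.05 edgeR (0% of all genes) and DESeq2 (0.251%) each called 0 members, DESeq2 with 3 at an unadjusted p under 0.05 (7.12%). Cxcl14 went from 8.64, 11.4 and 9.01 CPM to 28.8, 27.1 and 25.4 CPM, 2.80-fold in the means, with no overlap (log2 fold change 1.48 ± 0.50, edgeR adjusted p = 0.705). Ccl11 went from 1.24, 1.99 and 0.523 CPM to 4.41, 2.73 and 4.07 CPM, 2.99-fold, also with no overlap (1.56 ± 0.52, edgeR adjusted p = 0.705). The adjusted p of Cxcl14 ran from 0.0399 to 1 over 15 alternatives and that of Ccl11 from 0.163 to 1 over 14, with an unadjusted p under 0.05 in each. Atrial markers had lower means after doxorubicin in this comparison, going from sums of 3864 to 8048 CPM after saline to 1803 to 3990 CPM after doxorubicin, with 0 of 4 means higher. Mesothelial markers also had 0 of 5 means higher (sums of 14.4 to 77.0 CPM, then 3.78 to 21.1 CPM), and fibroblast markers 0 of 4 (1240 to 1557, then 973 to 1183 CPM). Their part in the levels of Cxcl14 and Ccl11 was not tested.

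A17fl/fl + NS replicate 1 was in neither of these groups, but the 4 groups share an estimate of spread in the model, and the common dispersion was 0.0446 without it and 0.0842 with it. When it was left out, 8 members were higher at an unadjusted p under 0.05 (11.5% of all genes in either direction) and 4 met the study's limits, Ccl7 and Ccl12 in addition (0.463% of all genes higher, 0.414% lower). Ccl7, a Ccr2 ligand, was at 1.296, 3.71 and 1.45 CPM after saline and at 5.04, 5.46 and 4.49 CPM after doxorubicin in A17α-MHCKO hearts, with no overlap and a log2 fold change of 1.18 ± 0.41 (edgeR adjusted p = 0.338). Ccl12 was at 1.67, 3.58 and 1.69 CPM and at 2.83, 5.27 and 7.23 CPM, with 1.12 ± 0.42 and overlap. Cxcl1 was at 0.370, 0.907 and 1.16 CPM and at 3.46, 1.89 and 1.64 CPM, with no overlap and 1.5 ± 0.49 (edgeR adjusted p = 0.3355). Ccl6 was at 45.1, 47.9 and 49.9 CPM and at 97.8, 65.7 and 59.3 CPM, with no overlap and 0.64 ± 0.22. In all, 7 of 35 members were higher without overlap between the groups and 0 were lower (9.16% and 7.79% of all genes). Neutrophil markers had higher means for 8 of 8 after doxorubicin in A17α-MHCKO hearts, with sums of 11.96, 21.8 and 70.2 CPM against 14.3 to 19.7 CPM after saline. The lowest treated heart was below the saline range and 1 treated heart was far above it. The part of these cells in the levels of Ccl7, Ccl12, Cxcl1 and Ccl6 was not tested.

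The effect of genotype under the drug was taken from A17α-MHCKO + DOX against A17fl/fl + DOX, and no difference in a member passed the limits. By the study's limits 0 of 35 members were called in either direction (0.149% of all genes higher and 0.0559% lower). By edgeR 0 had an adjusted p under 0.05 (0.00621% of all genes) and 0 an unadjusted one (2.7%), and by DESeq2 0 had either (0.0188% and 3.03%). Cxcl14 was at 25.4 to 28.8 CPM in A17α-MHCKO + DOX and at 21.8 to 29.3 CPM in A17fl/fl + DOX hearts, a log2 difference of 0.14 ± 0.48. Ccl11 was at 2.73 to 4.41 and at 1.72 to 3.14 CPM, a log2 difference of 0.56 ± 0.50. Cxcl12 was at 199 to 282 and at 252 to 329 CPM, a log2 difference of -0.32 ± 0.22. With the first A17fl/fl + NS heart left out of the model, 2 members were lower at an unadjusted p under 0.05 (5.85% of all genes in either direction). These were Ccl3, from 3, 1 and 0 counts against 15, 7 and 4, and Ccr10 from 9, 4 and 8 counts against 9, 20 and 15.

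The interaction asks whether the change with doxorubicin differed between the genotypes. By the study's limits 9 of 35 members had a higher value in A17α-MHCKO hearts (beside 1.47% of all genes) and 0 a lower one (0.658%), and 10 had an unadjusted p under 0.05 (5.99%). At an adjusted p under 0.05 edgeR called 0 (0% of all genes), while DESeq2 called 2 (0.132% of all genes, 21 in number), Cxcl14 (adjusted p = 0.0170) and Ccl11 (adjusted p = 0.0282). For Cxcl14 the log2 difference between the 2 changes was 3.02 ± 0.70 (edgeR adjusted p = 0.815), and 2.13 ± 0.44 without A17fl/fl + NS replicate 1 (edgeR adjusted p = 0.437). For Ccl11 it was 3.15 ± 0.72 (edgeR adjusted p = 0.815), and 2.49 ± 0.59 without it (edgeR adjusted p = 0.463). These 2 genes met the limits with and without that heart (beside 0.89% of all genes higher and 0.823% lower without it), Cxcl1 kept a p under 0.05 (2.09 ± 0.70) with means under 1 FPKM, and the other 6 lost theirs. Across the same 4 groups the mean of the atrial marker Myl7 was 340 CPM in A17fl/fl + NS (0 to 1019), 283 in A17fl/fl + DOX, 633 in A17α-MHCKO + NS and 206 in A17α-MHCKO + DOX hearts. Its part in the interaction was not tested. In the reverse direction, the difference for Cxcr3 was -2.33 ± 0.94 (edgeR adjusted p = 0.828), with A17α-MHCKO hearts at 0.741, 0.907 and 0.291 CPM after saline and 0.755, 0.260 and 0.911 CPM after doxorubicin. For Cxcr3 the unadjusted p was above 0.05 (at the smallest difference, -1.68) when the library left out was replicate 1 or 3 of A17fl/fl + NS, replicate 1 of A17fl/fl + DOX, replicate 1 or 2 of A17α-MHCKO + NS, or replicate 2 of A17α-MHCKO + DOX.

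The Ccr7 ligands Ccl19, Ccl21a and Ccl21c had no unadjusted p under 0.05 in any comparison. The main Ccl21a gene was at 6.22 to 13.0 CPM in all but the first A17fl/fl + NS heart, and Ccl19 at 1.04 to 3.41 CPM. The symbol Ccl21a names 2 of the genes and Ccl21c another 2, and 5 symbols name 11 genes in all. Since copies of Ccl21, Ccl19 and Ccl27 are nearly identical in sequence, how the counting split fragments among them is uncertain. Cxcl16, the ligand of Cxcr6, was at 16.2 to 25.8 CPM outside the first A17fl/fl + NS heart and at 34.5 CPM in it, and Ccl24, another attractant of eosinophils, at 1.24 to 3.59 CPM in all 12.

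Over the tested members the median log2 fold change with doxorubicin in A17fl/fl hearts was -0.19, beside -0.04 for all genes, and 0.36 beside -0.01 without the first saline heart. In A17α-MHCKO hearts it was 0.32, beside 0.00 for all genes, with 25 of 35 members above 0. Between genotypes after saline it was -0.44, beside -0.03, and 0.10 beside -0.01 without that heart.

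Among 12 other chemokine genes of the same superfamily, 10 were tested. After doxorubicin in A17fl/fl hearts 1 was higher and 1 lower at an unadjusted p under 0.05, and after saline 1 was higher and 3 were lower in A17α-MHCKO hearts, with 0 in either direction for the other 2 comparisons of groups (10.7% and 10.1% of all genes in either direction for the first 2). Without the first A17fl/fl + NS heart, 1 was higher and 0 lower in each of these 2 comparisons (10.2% of all genes in both). The higher gene was Cx3cr1, the fractalkine receptor of resident macrophages and monocytes, in both cases. It was at 2.77, 1.98 and 3.38 CPM in A17fl/fl + NS, at 6.60, 11.2 and 9.26 CPM in A17fl/fl + DOX, at 4.14, 10.02 and 9.94 CPM in A17α-MHCKO + NS and at 6.61, 8.84 and 11.2 CPM in A17α-MHCKO + DOX hearts. The 3 A17fl/fl + NS hearts lay below the other 9. Its log2 fold change with doxorubicin was 1.73 ± 0.37 in A17fl/fl hearts (edgeR adjusted p = 0.299), 1.75 ± 0.43 without the first saline heart, and its interaction was -1.59 ± 0.50 (edgeR adjusted p = 0.828). The scavenging receptor Ackr3, which binds Cxcl12, was at 72.8 to 119.5 CPM in all 12 hearts and passed no limit. Of 37 genes that signal below chemokine receptors, 0 were higher and 3 lower with doxorubicin in A17fl/fl hearts at an unadjusted p under 0.05 (10.7% of all genes in either direction). Without the first saline heart 6 were higher and 0 lower (10.2%), and 0 passed an adjusted p under 0.05 by edgeR in either fit. The 6 included Rac2 (0.61 ± 0.26) and Vav1 (0.58 ± 0.24), which act in leukocyte movement.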

How the data were processed

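RNA from 12 left ventricles was sequenced as stranded paired-end mRNA libraries, 1 per mouse, and mice were the replicates. As deposited, the count table held whole fragment counts per gene, which the authors made with StringTie from HISAT2 alignments to GRCm39, per the submitters' processing notes, and FPKM values by the authors beside them. Totals were 15950717 to 21725076 fragments, so 1 count was worth 0.0432 to 0.0650 CPM, a precision that covers counting error only.

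The members and gene lists were chosen with earlier results of these data known. Genes described singly were members whose mean exceeded 1 FPKM in some group or whose unadjusted p was under 0.05 in some comparison. The 16101 genes that passed filterByExpr were fitted with edgeR 4.0.16 (R 4.3.3) in a model of 4 group means, with TMM normalization, the quasi-likelihood test and Benjamini-Hochberg adjustment over all genes tested. Adjusted p-values are from this test unless DESeq2 1.42.0 is named, whose shares of all genes are over the 15945 genes it gave an adjusted p. DESeq2, with its default filter for single outlying counts, gave the remaining 156 genes no p. Any member among them was counted as not called, without a test. Standard errors were derived from the fold change and its F statistic and are approximate. CPM were taken after TMM normalization. Contrasts were doxorubicin against saline in each genotype, genotype after each treatment, and their interaction. Pairs of libraries of a group differed by at least 12 times counting noise (chi-square per degree of freedom). Alternatives were DESeq2, another normalization, other count filters, fitting only the groups compared, the replicate number as a block, voom with library weights (limma 3.58.1), and each library left out. Motifs were searched on both strands with Python 3.11.15. Protein sequences and an annotation of GRCm39 were not used here.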

Additional observations from a re-analysis of the deposited data

Results flagged for a closer look

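By the interaction term of the edgeR model, 9 of 35 members met the study's limits, all with a higher value in A17α-MHCKO hearts. Of all genes 1.47% did so with a higher value and 0.658% with a lower one. The limits were an unadjusted p under 0.05, a log2 difference beyond 1 either way and a mean over 1 FPKM in any group. Cxcr3 (-2.33) met the limits of p and size but not that of FPKM. The difference (A17α-MHCKO minus A17fl/fl) was 7.14 for Cxcl5, 6.32 for Cxcr2, 6.31 for Ccl4, 5.28 for Cxcl1, 4.15 for Cxcl13, 3.499 for Ccl7, 3.15 for Ccl11, 3.02 for Cxcl14 and 2.73 for Ccl6. None of the 9 had an adjusted p under 0.05 by edgeR. When A17fl/fl + NS replicate 1 was left out, only Cxcl14, Ccl11 and Cxcl1 kept an unadjusted p under 0.05. Of these, Cxcl14 and Ccl11 met all the limits. Without A17fl/fl + NS replicate 1 the differences were 1.15 for Cxcl5, 0.77 for Cxcr2, 2.09 for Cxcl1, 2.06 for Cxcl13, 0.56 for Ccl7, 2.49 for Ccl11, 2.13 for Cxcl14 and 0.42 for Ccl6, and for Ccl4 the sign turned, to -0.82. For Cxcl13 the unadjusted p was also above 0.05 when any of 5 other libraries was left out, with a difference between 3.44 and 4.04. The edgeR fits, with 3 libraries in each group, held no test for single libraries far from their group.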

How the results depend on the processing

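The number of members called depended on A17fl/fl + NS replicate 1 and on the test. The counts below are also out of different numbers tested. These were 35 in the main fit, 22 with at least 10 counts in every library and 30 or 31 with the groups fitted alone. How many of the 35 DESeq2 left without a p was not counted. Shares of all genes by the study's limits were taken only for the main fit and without A17fl/fl + NS replicate 1. With doxorubicin in A17fl/fl hearts 13 were called, against 5 with DESeq2, 6 with at least 10 counts in every library, 7 with the groups compared fitted alone, 5 with the replicate block, 1 with voom and library weights and 0 by adjusted p, and 1 to 18 with a library left out (1 when it was A17fl/fl + NS replicate 1, 18 when it was replicate 2 of that group, and 7 when it was the second A17fl/fl + DOX heart). In A17α-MHCKO hearts 2 were called, against 1 with the count minimum, 5 fitted alone, 4 with voom, 0 by adjusted p and 2 with any library of these groups left out, and 4 without A17fl/fl + NS replicate 1, an alternative chosen after seeing the data. Between genotypes after saline 15 were called, against 6 with DESeq2, 8 with the count minimum, 4 with voom, 0 by adjusted p and 3 to 19 with a library left out. After doxorubicin the number was 0 in every alternative run. For the interaction 9 were called, against 5 with DESeq2, 3 with the count minimum, 3 with the replicate block, 4 with voom, 0 by adjusted p and 2 to 16 with a library left out (2 without A17fl/fl + NS replicate 1, 16 and 14 without replicates 2 and 3 of that group, 5 without replicate 1 of A17α-MHCKO + NS or of A17α-MHCKO + DOX). The cause was not tested. The replicate block had no footing in the labels beyond a shared number, and correlations of same-numbered libraries' deviations from their group means ran from -0.104 to 0.219.

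Log2 fold changes that reversed did so without A17fl/fl + NS replicate 1 or with voom. With doxorubicin in A17fl/fl hearts, leaving out a library gave -7.21 to 6.20 for Ccl3 (both other saline hearts at 0 counts, so no size can be read), -2.58 to 0.22 for Ccl6, -3.13 to 0.87 for Ccl2, -6.82 to 0.88 for Ccl4, -2.85 to 0.62 for Ccl7 and -3.28 to 1.44 for Ccr1, and voom gave 2.99 for Ccl3, 0.38 for Ccl2, 0.98 for Ccl4, 0.19 for Ccl7 and 0.96 for Ccr1. Between genotypes after saline the ranges were -7.97 to 5.87 for Ccl3, -2.13 to 0.047 for Ccl9, -3.86 to 0.14 for Ccl2, -6.98 to 0.73 for Ccl4 and -4.18 to 0.54 for Ccr1, with voom at 2.28 for Ccl3 and 0.73 for Ccl4. For the interaction they were -8.45 to 5.39 for Ccl3 and -0.82 to 6.89 for Ccl4, with voom at -5.18 and -0.69. Of 1903 single-gene values under an alternative, 1672 kept direction and side of the p limit and 22 reversed. Cxcl14 and Ccl11 kept both in all alternatives run for doxorubicin in A17α-MHCKO hearts, for genotype after saline and for the interaction, as did Cxcl12 for genotype after saline. These comparisons share the A17α-MHCKO + NS libraries, so they are not independent of one another. With 3 libraries a group, and members such as Cxcr3 and Cxcl5 at low counts, small differences were not detectable at this depth.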
